A study of Mus musculus with 6 samples.

Results

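The CHCHD proteins are small proteins of mitochondria that carry the twin CX9C motif, in which a cysteine is followed by 9 other residues and a second cysteine, and which occurs as a pair. Here 8 of the 21878 genes in the expression table form the group described: Chchd10, its closest relative Chchd2, and Chchd1, Chchd3, Chchd4, Chchd5, Chchd6 and Chchd7. They were chosen by gene symbol, and Chchd10 was chosen from the same contrast that is described below, as the gene with the lowest fold change of the series. The fold changes of these 8 genes are therefore given as a description, with no P value.

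RNA was measured in HT22 cells, an immortalized mouse hippocampal neuronal line, exposed for 24 h to 120 µM aluminum maltolate (Al group, 3 libraries) and in control cells (control group, 3 libraries). The 6 libraries are the inputs of an m6A immunoprecipitation experiment, that is, fragmented RNA before enrichment. The study's methods list a control in medium alone and a control with maltol, and the sources used here do not say which of the 2 was sequenced. The labels call the Al libraries only by the letter M, and all 6 samples come from 1 cell line, so that P values measure the spread between cultures of that line.

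CHCHD4, also known as MIA40, is the receptor of the intermembrane space that traps incoming cysteine-rich proteins and forms their disulfide bonds together with the sulfhydryl oxidase GFER. CHCHD3 and CHCHD6 are subunits of MICOS, the complex at the crista junctions of the inner membrane, while CHCHD1 is a protein of the mitochondrial ribosome. CHCHD2 and CHCHD10 form a complex with each other, and mutations in their human genes are known from Parkinson's disease and from amyotrophic lateral sclerosis with frontotemporal dementia.

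The motif is shown for 4 genes, the 3 whose change passed the thresholds and Chchd4, whose spacing differs. Each line is the coding stretch from the first to the last cysteine codon of the pair of motifs, 5′ to 3′, with the 4 cysteine codons in capitals, from GENCODE vM21 on GRCm38.
Chchd10: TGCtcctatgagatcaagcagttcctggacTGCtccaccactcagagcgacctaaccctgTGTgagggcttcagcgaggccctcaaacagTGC
Chchd2: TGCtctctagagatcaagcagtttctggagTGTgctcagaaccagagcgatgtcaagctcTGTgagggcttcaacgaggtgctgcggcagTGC
Chchd5: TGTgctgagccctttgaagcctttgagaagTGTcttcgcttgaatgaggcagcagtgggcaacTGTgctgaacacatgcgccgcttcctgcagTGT
Chchd4: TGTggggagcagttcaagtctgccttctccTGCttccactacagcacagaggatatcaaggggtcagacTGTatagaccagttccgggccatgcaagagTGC

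All 8 genes held the twin motif in their reading frame. In Chchd10 (codons 98 to 128 of 138) and Chchd2 (codons 116 to 146 of 153) 9 codons lay between the 2 motifs, so that all 4 cysteine codons were evenly spaced. Chchd4 had 12 codons between its motifs and the other 5 genes had 10. Chchd5 carried 4 cysteine pairs of this spacing, of which the last 2 are shown. Of 28 pairs of coding sequences, Chchd2 and Chchd10 were the most alike with an identity of 60.9% in a global alignment, ahead of Chchd3 and Chchd6 with 50.3%, and the median pair had 42.1%.

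Chchd10 lies on chromosome 10 from 75933130 to 75937747 on the plus strand, and Chchd2 on chromosome 5 from 129881156 to 129887470 on the minus strand (GRCm38). The 59.7% of the Chchd2 transcript that is shared, in runs of at least 50 bases, with 5 other genes makes its level uncertain. These are Chchd2-ps, Gm12350, Gm4995, Gm6222 and Zbed5, and only Zbed5 has values in the table. Chchd5 shared 4.53% of its transcript with Gm7209, and the other 6 genes shared no such run.

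The values in the table are FPKM, fragments scaled to the length of the gene and to the mapped reads of the library. They were divided by a size factor per library and are called scaled FPKM below. The factor is the median ratio to the geometric mean of all libraries. It was taken over the genes above 0 in every library whose mean FPKM reached 1. The whole reads behind the values could be recovered, and gene reads per library ran from 37902176 to 44373975 for the control and from 21047017 to 26572386 for Al. Of 12889 genes tested with limma, 3375 (26.2%) were higher and 3143 (24.4%) were lower in the Al group, at an unadjusted P below 0.05 and an absolute log2 fold change above 0.58. With the FPKM as deposited these counts were 1805 and 5417, and with TPM, FPKM rescaled to the same sum in every library, 1200 and 6843. The median log2 fold change of all genes tested was 0.030 with the size factors, -0.43 with the FPKM as deposited and -0.72 with TPM. Of 10 neuronal marker genes, Snap25 was at 0 in every library, and Map2, Dcx, Nefl and Rbfox3 were at or below 0.0379 scaled FPKM. Stmn2 and Prox1 were at or below 0.0491, and Syp lay between 0.0565 and 0.409. Eno2 lay between 1.08 and 3.57, and Tubb3 between 2.999 and 4.94. The summed level of these markers was 6.47 to 8.08 in the control and 4.77 to 8.05 in the Al libraries. Of the other cell types, the astrocyte markers summed to 11.9 to 19.5 in the control and 1.92 to 2.82 in the Al libraries, most of it Slc1a3, with Aqp4 at 0. The microglial markers summed to 33.5 to 41.4 and 23.8 to 90.5, almost all of it Tmem119, with P2ry12 at 0. The oligodendrocyte markers summed to 0.171 to 0.302 and 0.496 to 1.38, and the endothelial markers to 0.0843 to 0.211 and 0.490 to 0.751. Of these 4 lists, Cx3cr1, Sox10 and Pecam1 were called higher and Slc1a3 was called lower. The part of these differences in the results below was not tested.

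To describe the family, the level of each gene was first set side by side. In control cells Chchd2 was the most abundant member at 143 ± 9.06 scaled FPKM (SD, n = 3), followed by Chchd3 at 53.2 ± 6.93 and Chchd1 at 32.9 ± 5.69. Chchd4 (12.5 ± 1.62), Chchd6 (9.07 ± 0.927), Chchd5 (5.59 ± 0.545), Chchd10 (5.27 ± 0.891) and Chchd7 (1.41 ± 0.0112) came after them. Only the neighbours Chchd5 and Chchd10 overlapped in this order in control cells. In the Al group Chchd10 was the lowest member, and the ranges of Chchd4 and Chchd5, and of Chchd5 and Chchd6, overlapped. The place of Chchd7 rests on its gene length, since its values imply 9711 bases whereas its longest coding transcript has 889. Per kilobase of that transcript its level was 15.3 ± 0.122 in the control and 11.3 ± 0.872 in the Al group, and Chchd4, with a coding transcript of 3472 bases against 1245 bases implied by its values, was then at 4.49 ± 0.58 and 4.45 ± 0.208.

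**Figure D1:**
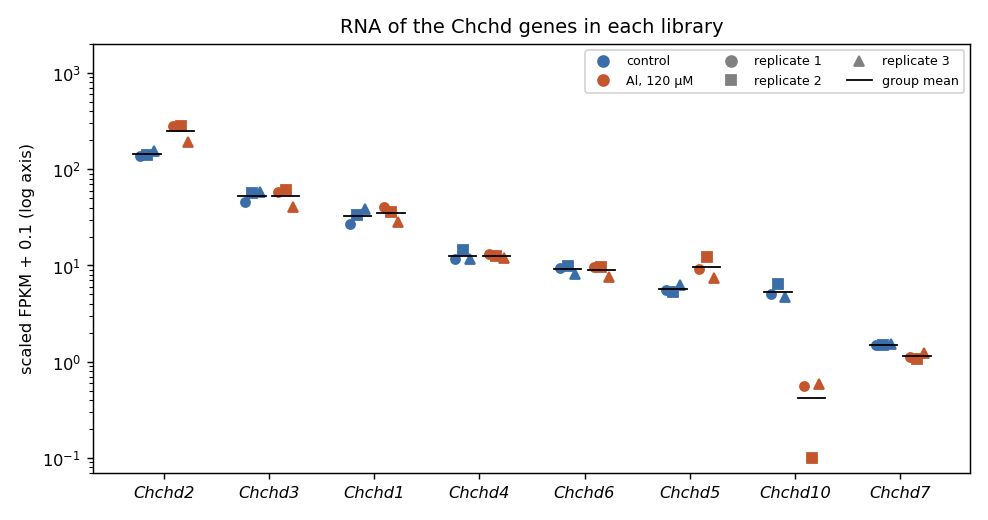
Scaled FPKM plus 0.1 on a log axis for the 8 Chchd genes, ordered by their control mean, with 1 point per library (blue, control; orange, 120 µM Al; symbol shape, replicate) and a black line at each group mean. Chchd2 sits above all other members in both groups, and Chchd10 is the member with the widest gap between the groups, its Al replicate 2 lying at 0.

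Chchd10 encodes the protein that pairs with CHCHD2 in the intermembrane space. Its level was 4.91, 6.28 and 4.60 scaled FPKM in the 3 control cultures and 0.454, 0 and 0.493 with Al. The groups did not overlap, and the highest Al library was far below the lowest control library. These values rest on 365, 543 and 397 reads in the control and on 16, 0 and 16 reads in the Al libraries. The 95% Poisson interval of 16 reads runs from 9.15 to 26.0, while that of 0 reads reaches 3.69. The floor used for the library at 0 was 3 reads, or 0.102 scaled FPKM. These limits cover counting error only.

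The group means of Chchd10 were 5.27 ± 0.891 and 0.316 ± 0.274 scaled FPKM (SD, n = 3), which is 16.7-fold lower in the Al group. With the 0 set to the limit of 3 reads the ratio was 15.1, and without Al replicate 2 it was 11.1. On the log2(scaled FPKM + 0.1) scale the difference was -4.05 (SE 0.61), a size that depends on the pseudocount because of the 0. It was -2.27 with a pseudocount of 1, -5.30 with 0.01 and -4.94 with limma voom on the recovered reads. Without Al replicate 2 it was -3.22. In the FPKM as deposited the means were 6.27 ± 1.16 and 0.275 ± 0.243. RNA per cell and the number of cells that hold the transcript cannot be told apart in bulk samples.

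Among the 12889 genes tested Chchd10 had the lowest log2 fold change, which is how it was chosen. The rank was therefore also 1 among the 7536 genes whose mean FPKM reached 1 and whose groups did not overlap. Chchd10 reached that mean only through its control libraries (6.27 against 0.275 in the FPKM as deposited). The rank stayed at 1 with the FPKM as deposited, with TPM and with voom. It was 2 with a pseudocount of 0.01 and 21 with a pseudocount of 1. The next 4 genes among them were Synpo, which encodes an actin-associated protein, at -3.82 (SE 0.33), Them6 at -3.79 (SE 0.55), the ribonuclease gene Rnase1 at -3.40 (SE 0.57) and the small GTPase gene Rab3d at -3.39 (SE 0.28). Them6 and Rnase1 were, like Chchd10, listed at 0 in at least 1 Al library.

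Chchd2 went the other way. It was at 136, 139 and 153 scaled FPKM in the control and at 282, 279 and 191 in the Al libraries. The groups did not overlap, and Al replicate 3 lay nearest to the control. Its means were 143 ± 9.06 and 251 ± 51.6 (SD, n = 3), 1.76-fold higher in the Al group, with a log2 fold change of 0.79 (SE 0.17). The size of this difference follows the scaling, at 0.30 with the FPKM as deposited, 0.0046 with TPM and 0.092 after quantile normalization. Relative to the median of all genes it was 0.74 with the FPKM as deposited, 0.72 with TPM and 0.12 after quantile normalization. Leaving out 1 library at a time gave values between 0.70 and 0.99.

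The ratio of Chchd10 to Chchd2 within a library does not depend on the size factor. It was 3.60%, 4.52% and 3.01% in the control and 0.161%, 0% and 0.258% in the Al libraries, so the pair moved apart in every Al library. The summed level of the 8 genes was 263 ± 20.3 scaled FPKM in the control and 371 ± 71.6 in the Al group. Unlike the ratio, this sum depends on the size factors. The Al mean of Chchd2, its largest part, was 1.76-fold the control mean with them and 1.24-fold in the FPKM as deposited. Chchd2 made up 54.4% ± 2.16 of that sum in the control and 67.5% ± 1.01 in the Al group, and Chchd10 2.01% ± 0.365 and 0.0936% ± 0.0866.

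Chchd5, a twin CX9C protein with a less well known role, was the other member at a higher level. It was at 5.41, 5.16 and 6.21 scaled FPKM in the control and at 9.04, 12.03 and 7.36 in the Al libraries, without overlap. Its log2 fold change was 0.73 (SE 0.18), which became 0.24 with the FPKM as deposited, turned to -0.051 with TPM, where it was 0.66 relative to the median of all genes, and was 0.89 after quantile normalization. Al replicate 2 was the highest library and Al replicate 3 the lowest of its group. Without Al replicate 2 the log2 fold change was 0.55, which is under the threshold.

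Chchd4, the import receptor itself, was at 11.5, 14.4 and 11.7 scaled FPKM in the control and 13.0, 12.4 and 11.9 in the Al libraries. Its log2 fold change was -0.0057 (SE 0.12), and the groups overlapped. The MICOS subunits also had overlapping groups. Chchd3 was at 45.3, 56.1 and 58.2 in the control and 57.7, 60.9 and 40.7 in the Al libraries, with a log2 fold change of -0.016 (SE 0.17). Chchd6 was at 9.36, 9.82 and 8.04 against 9.55, 9.51 and 7.58, with a log2 fold change of -0.033 (SE 0.13). In both, Al replicate 3 was the lowest of all 6 libraries. The values of Chchd4, Chchd3 and Chchd6 were -0.49, -0.50 and -0.52 with the FPKM as deposited and -0.79, -0.80 and -0.81 with TPM, past the threshold. Relative to the median of all genes they were -0.057, -0.070 and -0.083 with the FPKM as deposited and -0.071, -0.087 and -0.097 with TPM. After quantile normalization Chchd3 was at -0.44, Chchd4 at -0.021 and Chchd6 at 0.057.

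Chchd1, the ribosomal protein, was at 26.8, 33.6 and 38.1 scaled FPKM in the control and at 40.5, 36.2 and 27.9 in the Al libraries. The groups overlapped, and its log2 fold change was 0.084 (SE 0.17), which turned to -0.40 with the FPKM as deposited, -0.70 with TPM and -0.18 after quantile normalization. Relative to the median of all genes it was 0.031 with the FPKM as deposited and 0.014 with TPM. Chchd7, whose protein is a small mitochondrial import substrate, was at 1.41, 1.39 and 1.42 in the control and 1.025, 0.960 and 1.12 in the Al libraries. The groups did not overlap, but the log2 fold change of -0.41 (SE 0.18) did not reach the threshold of the fold change, which it passed at -0.86 with the FPKM as deposited and at -1.13 with TPM. The 3 control libraries of Chchd7 lay closer together than those of any other member, with a coefficient of variation of 0.794% against 6.34% to 17.3% for the other 7. They rest on 616, 710 and 719 reads, whose counting error alone is wider than this spread. The closeness of these 3 values is therefore not read as a trait of the gene.

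By the call rule, 2 of the 8 genes were higher (26.2% of all genes tested), 1 was lower (24.4% of all genes tested) and 5 were not called, and the groups did not overlap for 4 of the 8 (68.1% of all genes tested). The rule includes a P value, so these calls are a description and no test of the members. The gene called lower was Chchd10, whose call restates its choice from this contrast. Of the 8, those higher and lower were 0 and 2 with the FPKM as deposited, 0 and 6 with TPM, 1 and 1 after quantile normalization, and 1 and 1 without Al replicate 2. Over all genes tested these counts were, in the same order, 1805 and 5417, 1200 and 6843, 2846 and 3127, and 3345 and 3006. The median log2 fold change of the 8 was -0.011, against 0.030 for all genes tested. For 6 of the 8, all but Chchd7 and Chchd10, Al replicate 3 was the lowest Al library, which held for 36.8% of all genes tested.

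**Figure D2:**
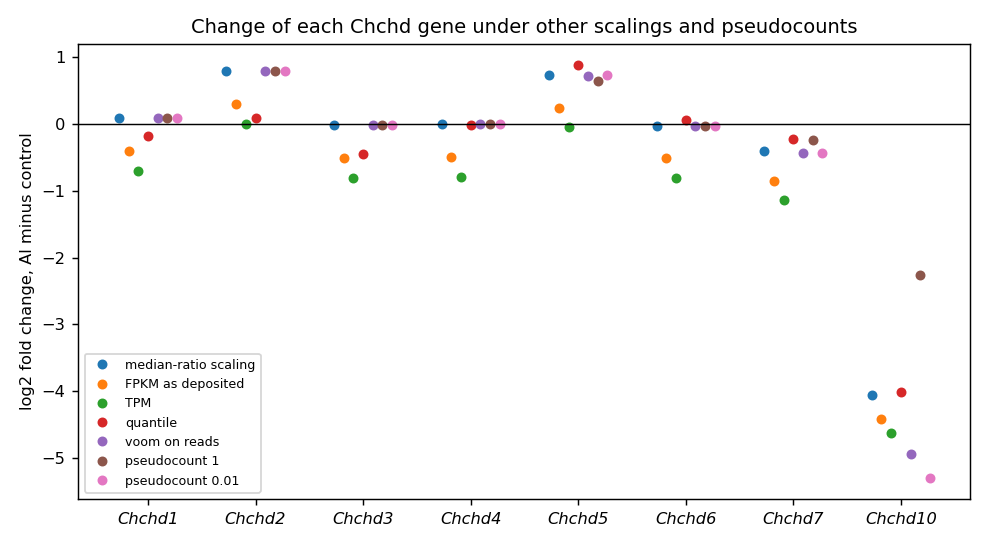
Log2 fold change, Al minus control, of each Chchd gene under 4 scalings (median-ratio size factors, FPKM as deposited, TPM, quantile normalization), voom on the recovered reads and other pseudocounts. Chchd10 lies below -2 in all of them, while Chchd2 moves from 0.79 with the size factors to 0.0046 with TPM.

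Next, the genes around Chchd10 and Chchd2 were described. Mmp11, the gene of the matrix metalloproteinase stromelysin-3, lies on the opposite strand beside Chchd10. In GENCODE vM21 155 of the 1575 exon bases of Chchd10 (9.84%), all of them coding, are also exon of Mmp11, and 25 are exon of Gm867. In the RefSeq table of the same build 627 bases separate Mmp11 from Chchd10. The RNA kit keeps the strand, but the sources used here do not give the strand setting of the counting, so reads of the overlap may have been assigned to either gene or to none.

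Mmp11 was at 56.9, 61.3 and 54.7 scaled FPKM in the control and at 5.22, 4.31 and 7.32 in the Al libraries. It fell with a log2 fold change of -3.37 (SE 0.18, limma adjusted P 4.9e-06) and was called lower under all 16 alternatives. The reads of Chchd10 per 100 reads of Mmp11 were 6.06, 7.19 and 5.91 in the control and 6.11, 0 and 4.73 in the Al libraries. Of the 2 Al libraries with Chchd10 reads, 1 lay within and 1 below the range of the controls, and Al replicate 2 had 180 reads of Mmp11 and 0 of Chchd10. The part of Mmp11 reads in the values of Chchd10 was not tested.

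Smarcb1, a subunit of the SWI/SNF chromatin remodelling complex and the next gene on that side, at a distance of 11513 bases, was at 46.6, 46.3 and 49.7 in the control and 23.3, 25.0 and 29.5 in the Al libraries. It fell with a log2 fold change of -0.88 (SE 0.11, limma adjusted P 0.00019) and was called lower under all 16 alternatives. On the other side, Gm867 was at 0.162 or below in every library and was not tested, and Vpreb3 was at 0.0315 to 0.257 in the control and 0 to 0.774 in the Al libraries and was not called.

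Around Chchd2, the phosphorylase kinase subunit gene Phkg1, which contains Chchd2 on the same strand without a shared exon base, was at 0.234 to 0.454 in the control and 0.218 to 0.710 in the Al libraries. It was not called, nor were Sumf2, a sulfatase-modifying factor gene at 16.2 to 18.0 and 15.6 to 25.2, or Nupr1l at 0.197 to 0.467 and 0 to 0.467. Zbed5, which shares sequence with Chchd2, was at 0.9902, 1.44 and 1.72 in the control and 3.60, 2.61 and 1.63 in the Al libraries. It was called higher with a log2 fold change of 0.84 (SE 0.31, limma adjusted P 0.040), although its groups overlapped, and it was called under 10 of 16 alternatives.

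**Figure D3:**
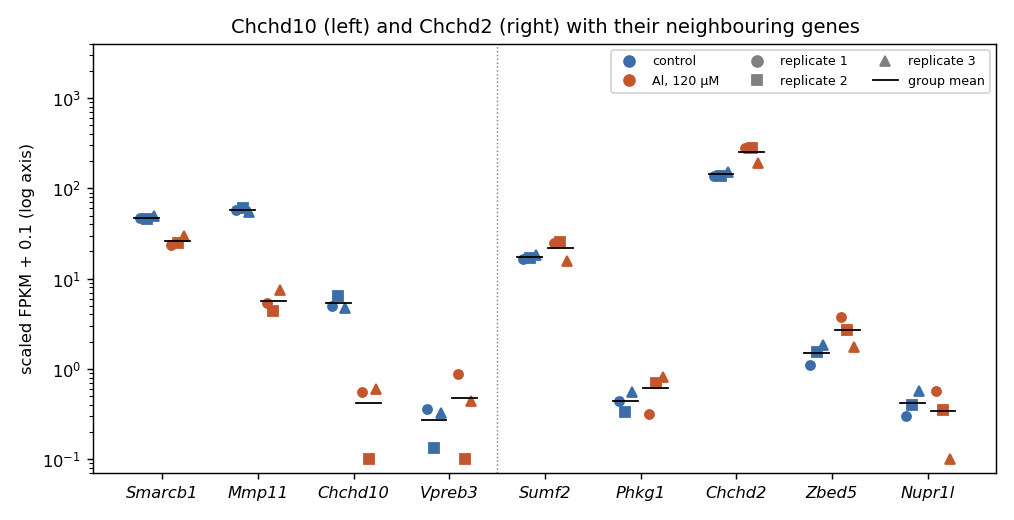
Scaled FPKM plus 0.1 on a log axis for Chchd10 (left of the dotted line) and Chchd2 (right) among the annotated neighbours that were tested, with 1 point per library (blue, control; orange, 120 µM Al; symbol shape, replicate) and a black line at each group mean. Smarcb1, Mmp11 and Chchd10 are lower in every Al library than in any control library, while around Chchd2 only Chchd2 itself is separated.

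The genes whose profile over the 6 libraries was most like that of Chchd10 were found by the Euclidean distance of mean-centred log2 values, among 10348 genes whose mean FPKM reached 1. The nearest was Them6 at a distance of 0.60, with 4.11, 4.01 and 3.25 scaled FPKM in the control and 0.440, 0 and 0.307 in the Al libraries. Triqk (1.69), Synpo (1.71), the transcription factor gene Creb3l2 (1.72) and 1700020L24Rik (1.87) followed. Of the other members Chchd7 was the nearest, at 4.88 and rank 3214, while Chchd2 lay at 6.39 and rank 8469.

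For Chchd2 the nearest profiles were the tubulin gene Tuba1c (0.068), the proteasome subunit gene Psmd2 (0.078), the mitochondrial aspartate aminotransferase gene Got2 (0.081), the histone gene H3f3b (0.081) and the G protein subunit gene Gnb1 (0.098). Tuba1c was at 81.0, 81.5 and 89.6 in the control and 171, 169.8 and 110.1 in the Al libraries, with Al replicate 3 between the control and the other Al libraries as for Chchd2. Chchd5 was the nearest member, at 0.32 and rank 319, and Chchd10 was the farthest of all 10348 genes, at 6.39. Chchd10 was chosen for the lowest fold change in these same libraries, so its place as the farthest restates that choice.

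To place the family among related proteins, 16 further genes listed as related to the twin CX9C family were examined, most of them encoding respiratory chain subunits or assembly factors. The twin motif was found with strict spacing in the reading frame of 10 of them and not in Cmc2, Coa6, Cox6b1, Cox6b2, Ndufb10 and Uqcrh, of which Ndufb10 held 0 pairs of that spacing and the other 5 held 1. The 4 evenly spaced cysteine codons of Chchd2 and Chchd10 occurred only in Coa4 and Ndufa8 among these 16. Of the 16 genes, 8 rose, 2 fell and 6 were not called (26.2% and 24.4% of all genes tested), with a median log2 fold change of 0.63 against 0.030. Al replicate 3 was the lowest Al library for 12 of the 16, and likewise for 7 of 8 genes tested of the import relay, 7 of 10 of MICOS, 7 of 8 of the complex partners and 2 of 4 of the oxygen response named below, against 36.8% of all genes tested. The part of this library in the calls was tested only by leaving it out. Of the 10 with the strict motif 4 rose and 2 fell, with a median of 0.14.

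Triap1, which encodes an intermembrane space lipid-transfer protein induced by p53, was at 13.2, 11.2 and 13.3 scaled FPKM in the control and 44.1, 42.4 and 30.8 in the Al libraries. It rose with a log2 fold change of 1.62 (SE 0.15, limma adjusted P 4.3e-05). Cox6b1, a subunit of cytochrome c oxidase, was at 189, 203 and 215 against 634, 602 and 389, and rose by 1.39 (SE 0.20, limma adjusted P 0.00045). Both kept their call under every alternative.

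Ndufs5, a subunit of complex I, was at 43.5, 42.9 and 44.7 in the control and 99.2, 92.4 and 45.9 in the Al libraries. It rose by 0.78 (SE 0.26, limma adjusted P 0.027), with Al replicate 3 close to the control, and its call was lost without Al replicate 1 or 2. It shares 43.2% of its transcript with BC002163. Cox19, an assembly factor of cytochrome c oxidase, was at 22.8, 26.2 and 27.0 against 55.8, 42.4 and 32.9 and rose by 0.75 (SE 0.18, limma adjusted P 0.0057), a call that was lost without Al replicate 1. Both calls were also lost with the FPKM as deposited (0.29 for Ndufs5 and 0.27 for Cox19) and after quantile normalization (0.34 and 0.48), and the values turned to -0.0095 and -0.031 with TPM.

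The 2 genes that fell were Cmc1 and Cmc4. Cmc1, an assembly factor of cytochrome c oxidase, was at 2.22, 3.78 and 2.52 in the control and 1.68, 1.87 and 0.898 in the Al libraries, with a log2 fold change of -0.92 (SE 0.30, limma adjusted P 0.025) that was not called without control replicate 2 or after quantile normalization. Cmc4 was at 1.47, 1.77 and 1.17 against 0.265, 1.17 and 0.768, with -1.07 (SE 0.42, limma adjusted P 0.053), and shares 53.3% of its transcript with Mtcp1. Its call was lost under 6 of the alternatives with all libraries, the adjusted P among them, and in 3 of the 6 fits that leave out 1 library. Cox6b2 was listed at 0 in all control libraries, so no fold is given. Without Al replicate 1 only 2 of the 16 genes were called higher, the same number as with the FPKM as deposited, with TPM and after quantile normalization. Over all genes tested, those called higher were 3364, 1805, 1200 and 2846 in the same order, against 3375. Of the 16, the genes called lower were between 0 and 6 over these scalings. Over all genes tested, they were 5417 with the FPKM as deposited, 6843 with TPM and 3127 after quantile normalization.

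**Figure D4:**
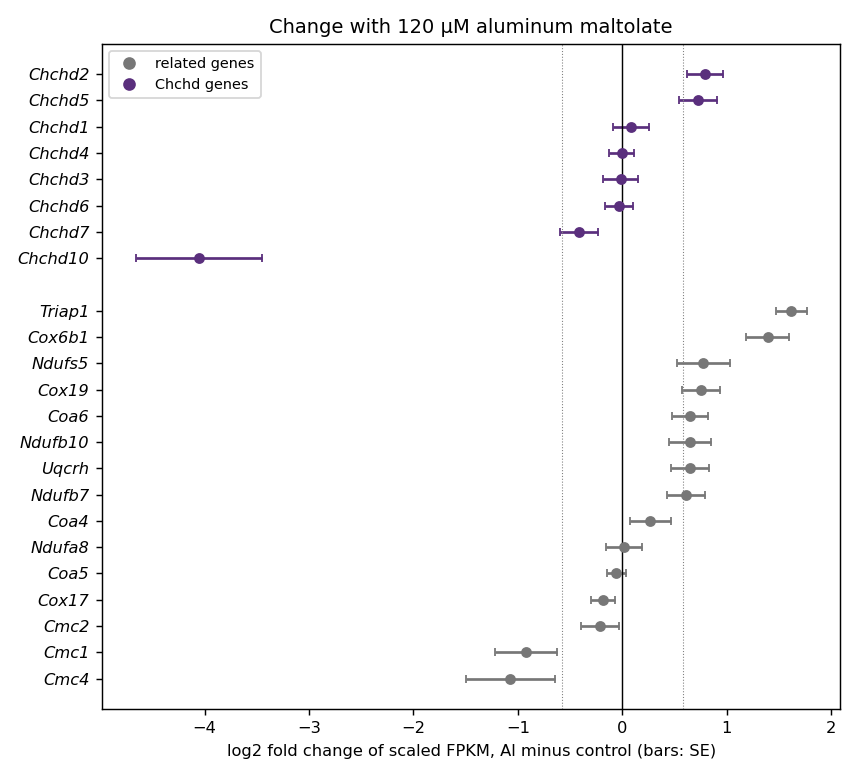
Log2 fold change of scaled FPKM, Al minus control, with its SE for the 8 Chchd genes (purple) and 15 of the 16 related genes (grey), without Cox6b2, whose control libraries are at 0. Dotted lines mark the threshold of 0.58. Chchd10 lies at -4.05 while the others lie between -1.07 and 1.62.

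The import relay was then examined with 9 genes, of which 8 were tested, 2 rose and 0 fell (26.2% and 24.4% of all genes tested). Gfer, the oxidase that takes electrons from CHCHD4, was at 19.4, 18.0 and 21.1 in the control and 41.4, 46.3 and 32.3 in the Al libraries. It rose by 1.02 (SE 0.14, limma adjusted P 0.00033), and its call was lost with the FPKM as deposited and with TPM. Timm10, a small chaperone of the intermembrane space and a substrate of the relay, was at 9.29, 13.6 and 13.9 against 43.6, 41.7 and 30.8 and rose by 1.66 (SE 0.19, limma adjusted P 0.00012) under every alternative. Timm8a2 was too low to be tested.

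Of 10 genes of MICOS and its partner complex of the outer membrane, 1 rose and 1 fell (26.2% and 24.4% of all genes tested). Minos1, the small MICOS subunit also named Micos10, was at 12.5, 14.4 and 15.9 in the control and 41.3, 33.8 and 17.9 in the Al libraries. It rose by 1.04 (SE 0.27, limma adjusted P 0.0090), with the call lost under the FPKM as deposited and TPM. Mtx2, a metaxin of the outer membrane, was at 28.2, 34.5 and 34.6 against 24.4, 19.8 and 18.0 and fell by 0.65 (SE 0.14, limma adjusted P 0.0034). This fold change lay under the threshold without Al replicate 3.

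Of 8 partners and proteases of the CHCHD2 and CHCHD10 complex, 2 rose and 2 fell (26.2% and 24.4% of all genes tested). C1qbp, a matrix protein that binds both, was at 114, 128 and 141 in the control and 406, 412 and 277 in the Al libraries and rose by 1.50 (SE 0.18, limma adjusted P 0.00016). Phb, a prohibitin of the inner membrane, was at 53.6, 54.8 and 64.8 against 112, 115 and 71.3 and rose by 0.75 (SE 0.19, limma adjusted P 0.0070), a call that was lost with the FPKM as deposited (0.27) and after quantile normalization (0.25), and the value turned to -0.034 with TPM. It shares 51.5% of its transcript with 5 other genes.

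Oma1, the stress-activated protease of the inner membrane, was at 1.14, 1.27 and 0.981 in the control and 0.472, 0.401 and 0.295 in the Al libraries and fell by 1.34 (SE 0.25, limma adjusted P 0.0016). Opa1, the fusion dynamin that OMA1 cleaves, was at 8.48, 9.18 and 9.15 against 5.60, 5.49 and 5.20 and fell by 0.71 (SE 0.11, limma adjusted P 0.00055). Neither gene had overlapping groups, and the fold change of Opa1 fell short of the threshold after quantile normalization.

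CHCHD2 also acts in the nucleus on an oxygen-responsive element of the Cox4i2 promoter, and of 4 genes of that response 2 rose and 0 fell (26.2% and 24.4% of all genes tested). Cox4i1, the main isoform of this cytochrome c oxidase subunit, was at 498, 544 and 583 in the control and 1430, 1325 and 902 in the Al libraries. It rose by 1.14 (SE 0.23, limma adjusted P 0.0028), but was at 0.36 with TPM and at -0.031 after quantile normalization, both without a call. Cox4i2, the isoform of low oxygen, was at 0.302, 0.0952 and 0.122 against 1.17, 0.587 and 0.231 with 1.35 (SE 0.51, limma adjusted P 0.047), and its groups overlapped. The call of Cox4i2 was lost with the FPKM as deposited, with TPM, after quantile normalization, with a pseudocount of 1 and in 4 of the 6 fits that leave out 1 library. Rbpj and Cxxc5, the factors that act with CHCHD2 there, were not called.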

How the data were processed

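RNA of 6 input libraries, 3 control and 3 Al, was analysed; the immunoprecipitated libraries and m6A peaks were not used here. The authors trimmed the reads, removed ribosomal RNA reads and aligned the rest with HISAT2. The paper's methods name GRCm38/mm10, whereas the submitters' processing notes name GRCm39, fastp, HISAT2 and HTSeq. The authors deposited 1 FPKM value per gene symbol and library, scaled to gene length and mapped reads, with no scaling between libraries. The table held 0 value columns other than those of the 6 libraries. Titles beginning with M were taken as the Al group.

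FPKM values of a gene are whole multiples of what 1 read is worth, and whole reads were recovered for 17688 of 17688 genes above 0 within a tolerance of 1e-06. Library totals were 38059498, 43422487 and 44556774 in the control and 26670982, 21857907 and 21125634 in the Al group. Whether a read pair was counted once is not given in the sources used here.

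Values were tested as log2(FPKM divided by size factor + 0.1) with limma 3.58.1 in R 4.3.3 (lmFit, eBayes with trend) on the 12889 genes whose mean FPKM reached 0.1. Fold changes on this log2 scale, computed from the deposited FPKM, understate the change of low genes. Genes were called at an unadjusted P below 0.05 and an absolute log2 fold change above 0.58, the thresholds of the study, and P values were adjusted over all genes tested by the Benjamini-Hochberg method. With 3 against 3 libraries an exact permutation test could not go below 0.1, so none was used. The count test of the study, DESeq2, was not run, and limma voom was run on the recovered reads as an alternative.

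The genes and lists were chosen with earlier results of these data known. Named genes were the 8 members, the called genes with the largest fold changes in each list (up to 4 in each direction) and list genes not tested, the 2 nearest annotated genes on each side of Chchd10 and Chchd2, the 5 nearest profiles of each, and the genes with the 5 lowest fold changes among those whose mean FPKM reached 1 and whose groups did not overlap. Coding stretches and overlaps came from GENCODE vM21 on GRCm38 in place of protein sequences. Alternatives covered scaling, pseudocount, filter, trend, adjusted P, a replicate block, voom and each library left out. The recovery and the fit were tested on simulated data. Scripts used Python 3.11.15, pandas 2.3.3, scipy 1.17.1 and Biopython 1.88.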

Additional observations from a re-analysis of the deposited data

How the results depend on the processing

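The log2 fold change of Chchd10 was negative under all alternatives run, at -2.27 with a pseudocount of 1, -5.30 with a pseudocount of 0.01 and between -4.50 and -3.22 without 1 library. That of Chchd2 was 0.30 with the FPKM as deposited, 0.0046 with TPM, 0.092 after quantile normalization and between 0.70 and 0.99 without 1 library. Over all genes, those called higher and lower were 1805 and 5417 with the FPKM as deposited and 1200 and 6843 with TPM. They were 2846 and 3127 after quantile normalization, and 3197 to 3468 and 2962 to 3294 without 1 library. Of the 16 related genes, those called higher were 2 with the FPKM as deposited, 2 with TPM, 2 after quantile normalization and 2 to 8 without 1 library, against 8. Those called lower were 4, 6 and 0 under these scalings, 1 with a pseudocount of 1, 1 with every gene tested, 1 without the variance trend, 1 with voom, 1 at the adjusted P and 0 to 2 without 1 library, against 2. Of the partner genes, those called higher were 3 with the FPKM as deposited, 2 with TPM, 4 after quantile normalization and 6 to 8 without 1 library, against 7, and those called lower were 10 with the FPKM as deposited, 17 with TPM and 2 to 4 without 1 library, against 3. Of genes not called, Chchd1 turned to -0.40 with the FPKM as deposited, -0.70 with TPM and -0.18 after quantile normalization. With TPM the signs of Chchd5 (-0.051), Ndufs5 (-0.0095), Cox19 (-0.031) and Phb (-0.034) turned, as did that of Cox4i1 after quantile normalization (-0.031). Of 254 values of the 16 named list genes under the alternatives, 216 kept their call, 34 lost it with the same sign and 4 turned, and 5 genes (Triap1, Cox6b1, Timm10, C1qbp and Oma1) kept their call in all that tested them, Oma1 not being tested where the mean FPKM had to reach 1. The deposited scaling and TPM lower all genes by 0.46 and 0.75 in the median. The cause of the other changes was not tested.

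No pairing of the libraries by number was seen: deviations of same-numbered libraries correlated at -0.033, -0.026 and -0.073, and no library correlated best with its own number. With 3 libraries per group, whose deviations are taken from their own mean, these correlations cannot exclude a paired design. The replicate block gave 3352 genes higher and 3123 lower and called 8 of the related genes higher. In this balanced design a block cannot change a log2 fold change. Those of Chchd10 (-4.05) and Chchd2 (0.79) were therefore fixed to stay as they were. The fold of Chchd10 rests on 32 reads in the Al group.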
